A study of Homo sapiens with 10 samples.

Results

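The lysosome and TFEB network genes examined here are 41 named genes for the enzymes, membrane proteins and proton pump of the lysosome, for autophagy proteins, and for the transcription factors TFEB and TFE3 with the proteins that regulate them. A gene was measured where a probe set of the array was annotated to its symbol alone, and where several were, the probe set with the highest mean over all arrays was taken. This left 31 measured genes of 41, out of 14232 genes with such a probe set. CTSD, CTSL, GLB1, NPC2, SQSTM1, GABARAPL1, WIPI1 and FNIP1 lay only on probe sets annotated to several symbols, and FLCN and FNIP2 on no named one, so these 10 are not reported. The measured genes were 13 hydrolases, 6 membrane and transfer proteins, 6 parts of the proton pump, 2 autophagy genes and 4 TFEB regulators.

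The arrays hold total RNA of U2OS, a human osteosarcoma cell line. Cells were seeded at 25% density and grown for 30 h in McCoy medium with 10% serum, and then received PD0332991 (5 arrays) or the solvent DMSO (5 arrays) for 4 h. PD0332991, known as palbociclib, inhibits CDK4 and CDK6, the kinases that act with cyclin D. The labels print its dose as 1 mM, which is far above the micromolar doses in common use and could not be checked here. The labels call the replicates biological, and the array names divide them into set 1 (replicates 1 to 3 of both treatments) and set 2 (replicates 4 and 5 of both).

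The lysosome digests material delivered by endocytosis and autophagy with acid hydrolases, and a vacuolar ATPase in its membrane pumps in the protons that they need. TFEB and TFE3 are basic helix-loop-helix factors that bind a CACGTG-centred element, called CLEAR, in front of many lysosomal genes. When nutrients are plentiful the kinase mTORC1, held at the lysosome by Rag GTPases such as RRAGC and RRAGD, phosphorylates them and keeps them in the cytoplasm, and the FLCN and FNIP proteins act on those Rag GTPases. CDK4 and CDK6 have also been reported to phosphorylate TFEB, which bears on why these genes are of interest after PD0332991.

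The element that TFEB recognises was searched for in RefSeq promoter windows (build GRCh38.p14, 250 bases before to 50 bases after each start site), which held 28 of the 41 genes. The 8-base form TCACGTGA, which reads the same on both strands and contains CACGTG, stood in front of 5 of the 28 genes (17.9%). It stood in 0.98% of all 35116 windows, a count by window and not by gene, and a gene can have several windows. By gene, 201 genes measured on the arrays had it in a window and 11185 did not. The list holds known TFEB targets, beside TFEB, TFE3 and their regulators. The share of 17.9% is therefore a feature of the list and not a finding of the arrays. Genes without a window were not searched, and binding of TFEB was not measured. The stretches that hold TCACGTGA are shown here. They are written 5′ to 3′ on the strand of the gene with TCACGTGA in capitals.
CTSA (hydrolase, chr20:45891273-45891352, plus strand): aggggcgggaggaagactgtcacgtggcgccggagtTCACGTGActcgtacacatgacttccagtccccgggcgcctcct
GAA (hydrolase, chr17:80101468-80101592, plus strand): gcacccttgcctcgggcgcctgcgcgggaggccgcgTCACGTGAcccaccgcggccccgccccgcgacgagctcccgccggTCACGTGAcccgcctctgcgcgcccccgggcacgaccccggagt
LAMP1 (membrane protein, chr13:113297174-113297280, plus strand): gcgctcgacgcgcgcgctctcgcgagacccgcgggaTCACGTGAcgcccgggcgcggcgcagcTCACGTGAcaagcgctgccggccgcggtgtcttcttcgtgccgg
MCOLN1 (membrane channel, chr19:7522546-7522652, plus strand): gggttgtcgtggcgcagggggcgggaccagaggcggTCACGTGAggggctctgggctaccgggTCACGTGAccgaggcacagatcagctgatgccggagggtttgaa
ATP6V0D1 (proton pump, chr16:67481174-67481253, minus strand): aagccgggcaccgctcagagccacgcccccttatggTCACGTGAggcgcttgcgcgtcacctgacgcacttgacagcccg

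In GAA, LAMP1 and MCOLN1 the element occurs 2 times. Its first base lies 77 and 32 bases before the start site in GAA, 42 and 15 in MCOLN1, 29 and 2 in LAMP1, 26 in CTSA and 60 in ATP6V0D1. The longer palindrome GTCACGTGAC is present in GAA and MCOLN1, and in 0.353% of all windows. By gene, 81 genes measured on the arrays had it and 11305 did not. The 6-base core CACGTG is present in 10 of the 28 genes (35.7%) and in 7.26% of all windows. By gene, 1281 genes measured on the arrays had the core and 10105 did not. Beyond the 5 genes above, the listed genes with the core are the hydrolase genes CTSD, CTSF and NEU1 and the regulator genes FNIP1 and RRAGC.

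None of the 31 measured genes differed between PD0332991 and DMSO past the threshold (limma, array set as a covariate, adjusted p = 1.00 for each). None was called higher, where 0.00910% of all 21980 probe sets were, and none lower, where 0.0409% were (0.050% in either direction). Fold changes are PD0332991 minus DMSO on the log2 scale. Of the 31, 15 were above 0 and 16 below, with a median of 0.00 and a range of -0.28 to 0.26. Of all probe sets, 44.8% were above 0, with a median of -0.02. Without DMSO replicate 1, an array described below, 14 of the 31 were above 0 and 17 below, and 52.6% of all probe sets were above 0. Genes outside the network did pass: CCNE2, a cyclin gene controlled by E2F, was at 6.09 ± 0.27 with PD0332991 and 7.99 ± 0.39 with DMSO, and DDIT4, which encodes an inhibitor of mTORC1, was at 7.63 ± 0.21 with PD0332991 and 6.35 ± 0.18 with DMSO (log2, SD, n = 5 each, limma adjusted p = 0.00911 and 0.00177). In bulk RNA a change in the share of cells that express a gene and a change in RNA per cell cannot be told apart.

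The intervals bound the size of each difference. For all 31 genes the 95% confidence interval lay within a 2-fold change in either direction, and for 28 within 1.5-fold. The exceptions were LAMP2, ATP6V1A and ATP6V1C1, with upper bounds of 1.54-fold, 1.60-fold and 1.57-fold. The interval contained 0 for 30 genes and not for UVRAG. At an unadjusted p under 0.05 limma gave 1 of the 31 (UVRAG), where 4.17% of all probe sets reached it. In no gene did all PD0332991 arrays lie on one side of all DMSO arrays, which 0.773% of all probe sets did.

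**Figure D1:**
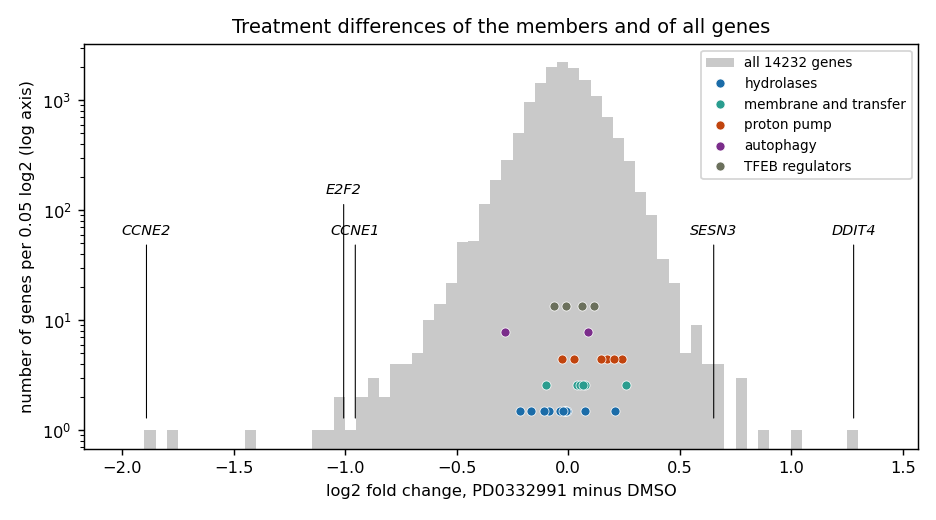
Treatment differences of the measured lysosome and TFEB network genes (coloured points, in rows by role) over the histogram of all 14232 genes with a single-symbol probe set. The horizontal axis is the log2 fold change, PD0332991 minus DMSO, and the vertical axis, logarithmic, counts genes for the histogram only. All 31 genes lie between -0.28 and 0.26, well inside CCNE2 on the left and DDIT4 on the right.

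The arrays were not equal. DMSO replicate 1 correlated less with the other arrays (mean r = 0.963) than any other array did (0.979 to 0.984), across all probe sets. It was the lowest of the 10 arrays for 11 of the 31 genes and the highest for 4. Of all 14232 genes, it was the lowest array for 22.4% and the highest for 32.6%, and thus the extreme array for 55.0%. Differences that moved with it are given with and without it. DMSO replicate 5 was the highest array for 12 of the 31 genes, against 10.3% of all genes. Of 12 measured mesenchymal and osteoblast markers, 8 had a mean above that of the median probe set, VIM at 11.77 with PD0332991 and 11.78 with DMSO among them, while the bone matrix gene IBSP was at 3.96 with PD0332991 and 4.28 with DMSO. Of 7 blood markers 0 did. Of 9 epithelial markers 3 did, among them KRT8 at 11.68 with PD0332991 and 11.73 with DMSO. No marker passed the limma threshold.

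The hydrolases degrade proteins, glycans and lipids in the lysosome. Of 13, 2 were above 0 and 11 below, with a median of -0.02, the same as that of all probe sets. Their array means were 8.57, 8.52, 8.54, 8.67 and 8.65 with PD0332991, against 8.65, 8.53, 8.52, 8.68 and 8.74 with DMSO (log2, replicates 1 to 5), and the groups overlapped throughout. Without DMSO replicate 1 the median was again -0.02, with 5 above 0 and 8 below.

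MANBA encodes beta-mannosidase, which removes mannose in the last steps of glycoprotein breakdown, and had the smallest p of the hydrolases. It was measured at 6.37, 6.64, 6.50, 6.43 and 6.60 with PD0332991, against 6.11, 6.39, 6.40, 6.36 and 6.21 with DMSO. PD0332991 replicate 1 lay below DMSO replicates 2 and 3, and the other 4 treated arrays lay above all DMSO arrays. The difference was 0.21 (95% confidence interval -0.01 to 0.44, limma unadjusted p = 0.0618, adjusted p = 1.00), with 0.20 in array set 1 and 0.23 in array set 2, and it was 0.16 without DMSO replicate 1.

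GLA encodes alpha-galactosidase A, which cleaves galactose from glycolipids. Its values were 8.36, 7.99, 8.39, 8.72 and 8.79 with PD0332991, against 8.45, 8.52, 8.56, 8.70 and 8.86 with DMSO. PD0332991 replicate 2 was the low array, and the set 2 arrays of both treatments were the 4 highest. The difference was -0.17 (-0.41 to 0.07, limma adjusted p = 1.00).

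TPP1 encodes a peptidase that removes tripeptides from the ends of proteins. It lay between 8.76 and 8.94 on the 5 PD0332991 arrays, against 9.74, 8.91, 8.94, 8.91 and 8.83 on the DMSO arrays. DMSO replicate 1 alone was high. The difference was -0.22 (-0.57 to 0.13) on all arrays and -0.06 (-0.22 to 0.10) without that array.

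SGSH encodes the sulfatase that removes sulfate from heparan sulfate, and its highest array was again DMSO replicate 1. The difference was 0.07 on all arrays and 0.16 (-0.04 to 0.36) without it. The other 9 hydrolases lay between -0.11 and 0.00 on all arrays. The cysteine protease genes CTSB, CTSF and CTSZ had -0.02, -0.08 and -0.04. CTSA, which encodes a carboxypeptidase that protects NEU1 and GLB1, had 0.00 with an interval of -0.21 to 0.20, and the sialidase gene NEU1 had -0.01. GAA, which encodes the acid glucosidase that breaks down glycogen, had -0.02 (-0.28 to 0.24), HEXA, a beta-hexosaminidase subunit gene, -0.01, NAGLU, which acts on heparan sulfate, -0.02, and the beta-glucuronidase gene GUSB -0.11. Without DMSO replicate 1, CTSB had 0.00, GAA 0.03 and HEXA 0.03, and the remaining 6 stayed below 0, with CTSA at -0.02, NEU1 at -0.02 and GUSB at -0.13.

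**Figure D2:**
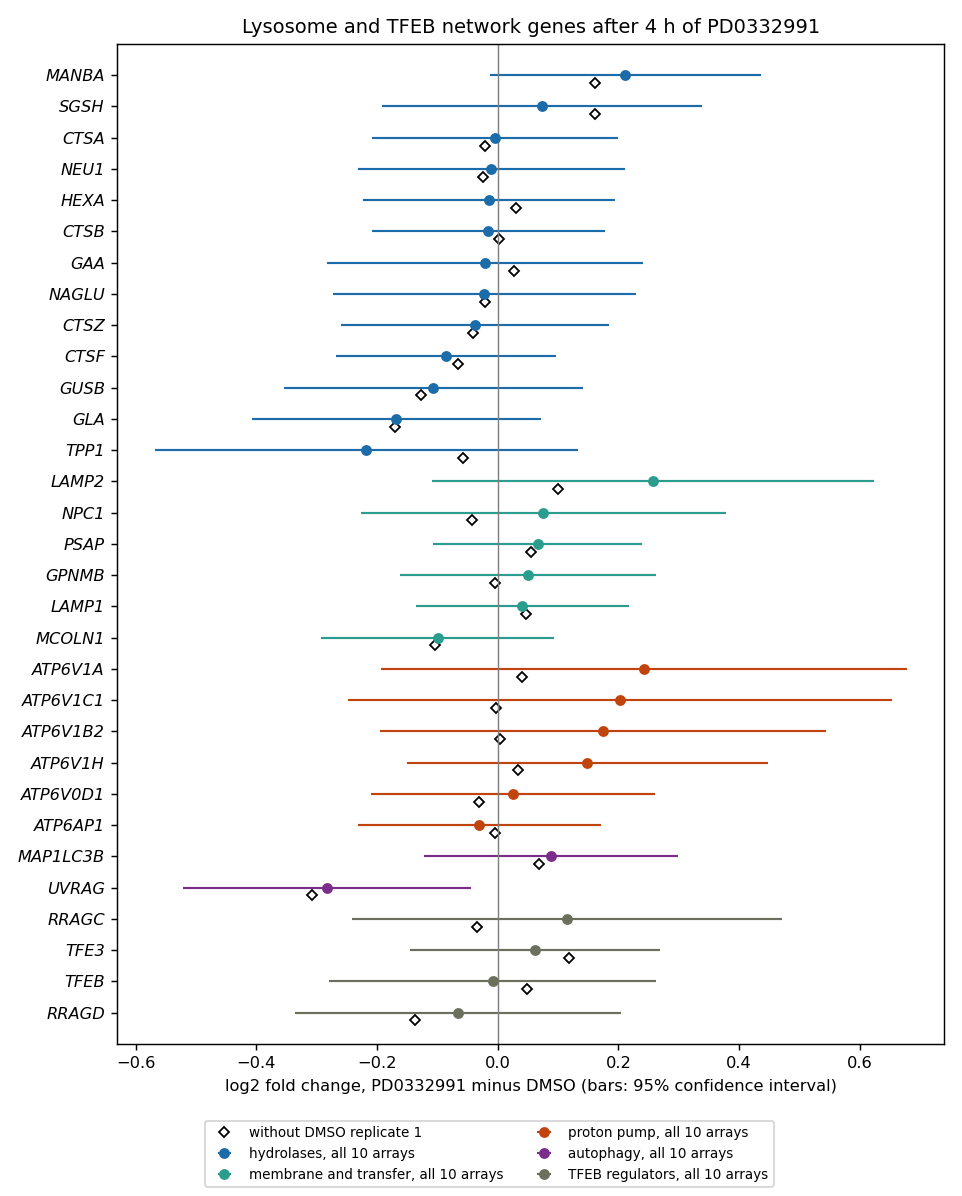
Log2 fold change, PD0332991 minus DMSO, of the 31 measured genes, coloured by role, with 95% confidence intervals from limma on 10 arrays (filled circles) and the value without DMSO replicate 1 (open diamonds). The interval of UVRAG alone lies clear of 0, and the diamonds of ATP6V1A, ATP6V1B2, ATP6V1C1 and ATP6V1H lie between 0.00 and 0.04.

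The membrane and transfer proteins form the lysosomal limiting membrane or carry lipids. Of 6, 5 were above 0 and 1 below, with a median of 0.06, and without DMSO replicate 1 the count was 3 and 3 with a median of 0.02. LAMP2, a heavily glycosylated membrane protein also needed for chaperone-mediated autophagy, was measured at 8.62, 8.70, 8.95, 8.72 and 8.83 with PD0332991, against 7.89, 8.59, 8.82, 8.62 and 8.61 with DMSO. DMSO replicate 1 was the low array. The LAMP2 difference was 0.26 (-0.11 to 0.62, limma adjusted p = 1.00) on all arrays and 0.10 (-0.12 to 0.32) without it.

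LAMP1, the most used marker of lysosomes, was measured at 10.76, 10.80, 10.89, 11.15 and 11.03 with PD0332991, against 10.79, 10.74, 10.78, 11.07 and 11.05 with DMSO. The arrays separated by set and not by treatment: both treatments were higher in array set 2. The treatment difference was 0.04 (-0.14 to 0.22), and set 2 was above set 1 by 0.28 (0.10 to 0.46, limma adjusted p = 0.0922).

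MCOLN1 encodes the calcium channel TRPML1 of the lysosomal membrane and, like LAMP1, carries 2 copies of TCACGTGA in the window printed above. The arrays gave 8.29, 8.31, 8.16, 8.39 and 8.30 with PD0332991, against 8.33, 8.40, 8.27, 8.36 and 8.57 with DMSO. The groups overlapped, and the difference was -0.10 (-0.29 to 0.09, limma adjusted p = 1.00), or -0.10 without DMSO replicate 1. The upper bound of the MCOLN1 interval on all arrays, not adjusted for the 31 genes read, was 1.07-fold.

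NPC1, the cholesterol exporter of the membrane, had 0.08 on all arrays and -0.04 without DMSO replicate 1, which measured 9.02 where the other DMSO arrays measured 9.48 to 9.84. PSAP, the precursor of the saposins that present lipids to hydrolases, had 0.07 (-0.11 to 0.24). GPNMB, a glycoprotein that rises under lysosomal stress in other settings, had 0.05 (-0.16 to 0.26) and 0.00 without DMSO replicate 1.

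The proton pump consists of a cytosolic V1 part that hydrolyses ATP and a membrane V0 part that carries protons. Of its 6 genes, 5 were above 0 and 1 below, with a median of 0.16, the highest of the 5 roles. This median rested on 1 array: without DMSO replicate 1 it was 0.00, with 3 genes above 0 and 3 below. The array means of the pump genes were 9.70, 9.53, 9.70, 9.55 and 9.61 with PD0332991, against 9.03, 9.61, 9.67, 9.56 and 9.58 with DMSO.

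DMSO replicate 1 was the lowest of the 10 arrays for 5 of the 6 pump genes, and its gap was widest in the 4 genes for V1 subunits, a split made after the values were seen. ATP6V1A, the catalytic subunit, was measured at 9.94, 9.72, 10.00, 9.56 and 9.84 with PD0332991, against 8.85, 9.85, 9.88, 9.63 and 9.67 with DMSO. ATP6V1B2, its partner in the ATP-hydrolysing ring, was at 10.55, 10.40, 10.48, 10.38 and 10.44 with PD0332991, against 9.61, 10.43, 10.49, 10.46 and 10.38 with DMSO. In both genes DMSO replicate 1 lay far below the other 9 arrays, which overlapped between treatments.

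ATP6V1C1, which links the V1 part to the V0 part, was at 9.97, 9.71, 10.06, 9.54 and 9.75 with PD0332991, against 8.92, 9.90, 10.08, 9.63 and 9.49 with DMSO. ATP6V1H, a regulatory V1 subunit, was at 7.77, 7.72, 7.96, 7.82 and 7.82 with PD0332991, against 7.24, 7.77, 7.96, 7.75 and 7.64 with DMSO. The same array was low in each. On all arrays the differences were 0.24 for ATP6V1A, 0.17 for ATP6V1B2, 0.20 for ATP6V1C1 and 0.15 for ATP6V1H (limma adjusted p = 1.00 each). Without DMSO replicate 1 they were 0.04 (-0.17 to 0.25), 0.00 (-0.16 to 0.16), 0.00 (-0.24 to 0.23) and 0.03 (-0.17 to 0.23).

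The gap was smaller in ATP6V0D1, a V0 subunit, and absent in ATP6AP1, an accessory subunit. DMSO replicate 1 stood 0.30 below the mean of the other DMSO arrays in ATP6V0D1 and level with it in ATP6AP1, against 0.91 below in ATP6V1A and 0.54 below in ATP6V1H. The treatment differences were 0.03 (-0.21 to 0.26) for ATP6V0D1 and -0.03 (-0.23 to 0.17) for ATP6AP1, and -0.03 and 0.00 without that array. The gap was not a trait of all V1 subunits, nor of the pump alone. In the V1 subunit gene ATP6V1E1, picked after its values were seen, DMSO replicate 1 was at 9.05, inside the 8.89 to 9.19 of the DMSO group, and M6PR, a sorting receptor gene picked likewise, was at 10.92 on that array and at 12.17, 12.15, 12.23 and 12.28 on the other DMSO arrays. What sets this array apart was not tested.

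**Figure D3:**
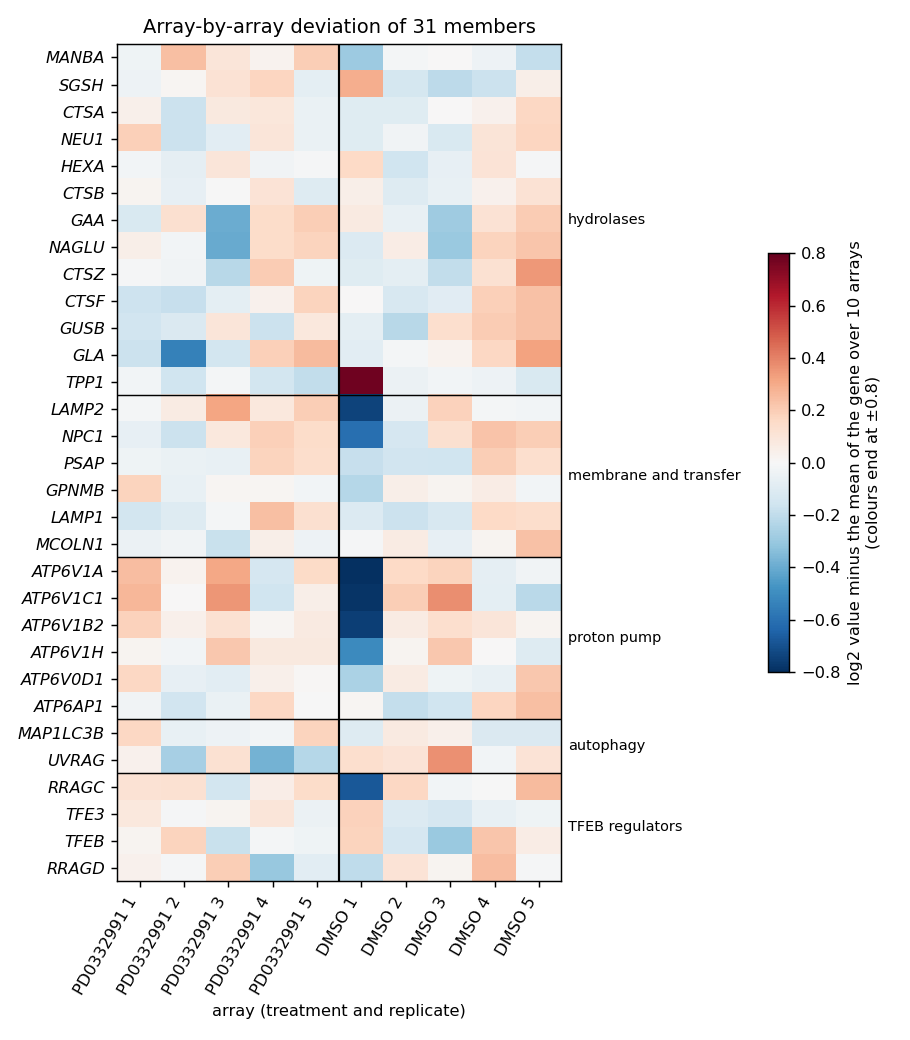
Heat map of the 31 measured genes (rows, grouped by role) on the 10 arrays (columns, PD0332991 left of the line and DMSO right of it). Colour is the log2 value minus the mean of that gene over the 10 arrays, red above and blue below. The column of DMSO replicate 1 is blue for the V1 subunits, LAMP2, NPC1 and RRAGC and red for TPP1, and no block of rows changes colour at the line between treatments.

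Only MAP1LC3B and UVRAG were measured among the 5 autophagy genes, so no direction of the role can be read. UVRAG encodes a partner of the Beclin 1 and PI3-kinase complex that promotes the maturation of autophagosomes and endosomes, and it had the smallest p of all 31 genes. It was measured at 8.27, 7.97, 8.36, 7.86 and 8.01 with PD0332991, against 8.37, 8.34, 8.60, 8.21 and 8.35 with DMSO. PD0332991 replicates 2, 4 and 5 lay below all DMSO arrays, and replicates 1 and 3 lay among them. The difference was -0.28 (-0.52 to -0.04, a fold of 0.822), with a limma unadjusted p of 0.0246 and an adjusted p of 1.00. It was -0.24 in array set 1, -0.35 in array set 2 and -0.31 without DMSO replicate 1 (unadjusted p = 0.0177 in limma).

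MAP1LC3B encodes the ubiquitin-like protein LC3B that is joined to autophagosome membranes. Its arrays gave 11.38, 11.15, 11.17, 11.19 and 11.39 with PD0332991, against 11.11, 11.28, 11.25, 11.10 and 11.10 with DMSO. Only PD0332991 replicates 1 and 5 lay above all DMSO arrays. The difference was 0.09 (-0.12 to 0.30, limma adjusted p = 1.00).

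Among the TFEB regulators, the groups of both transcription factors overlapped. TFEB was measured at 6.91, 7.07, 6.71, 6.88 and 6.86 with PD0332991, against 7.06, 6.75, 6.59, 7.11 and 6.95 with DMSO, a difference of -0.01 (-0.28 to 0.26), or 0.05 (-0.21 to 0.31) without DMSO replicate 1. TFE3, a factor of the same family, was at 9.47, 9.38, 9.40, 9.48 and 9.34 with PD0332991, against 9.57, 9.27, 9.25, 9.32 and 9.35 with DMSO, a difference of 0.06 (-0.15 to 0.27), or 0.12 (-0.04 to 0.28) without DMSO replicate 1. These values are mRNA levels, and the location and phosphorylation of the proteins were not measured.

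RRAGC and RRAGD encode the Rag GTPases that bring TFEB to mTORC1, and RRAGD is itself known as a TFEB target. RRAGC was measured at 8.77, 8.78, 8.51, 8.71 and 8.81 with PD0332991, against 7.98, 8.82, 8.63, 8.66 and 8.91 with DMSO. Its difference was 0.12 (-0.24 to 0.47) on all arrays and -0.03 (-0.25 to 0.18) without DMSO replicate 1, again the low array.

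RRAGD was at 7.15, 7.11, 7.31, 6.81 and 7.03 with PD0332991, against 6.91, 7.23, 7.14, 7.36 and 7.11 with DMSO, a difference of -0.07 (-0.34 to 0.20), or -0.14 (-0.38 to 0.10) without DMSO replicate 1. On all arrays it was 0.10 in array set 1 and -0.31 in array set 2, the largest gap between sets by p among the 31 genes, and that gap had a limma interaction p of 0.105 (adjusted p = 1.00). No member passed this test of the difference between sets, and 0 of 31 had an unadjusted p under 0.05 in limma.

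**Figure D4:**
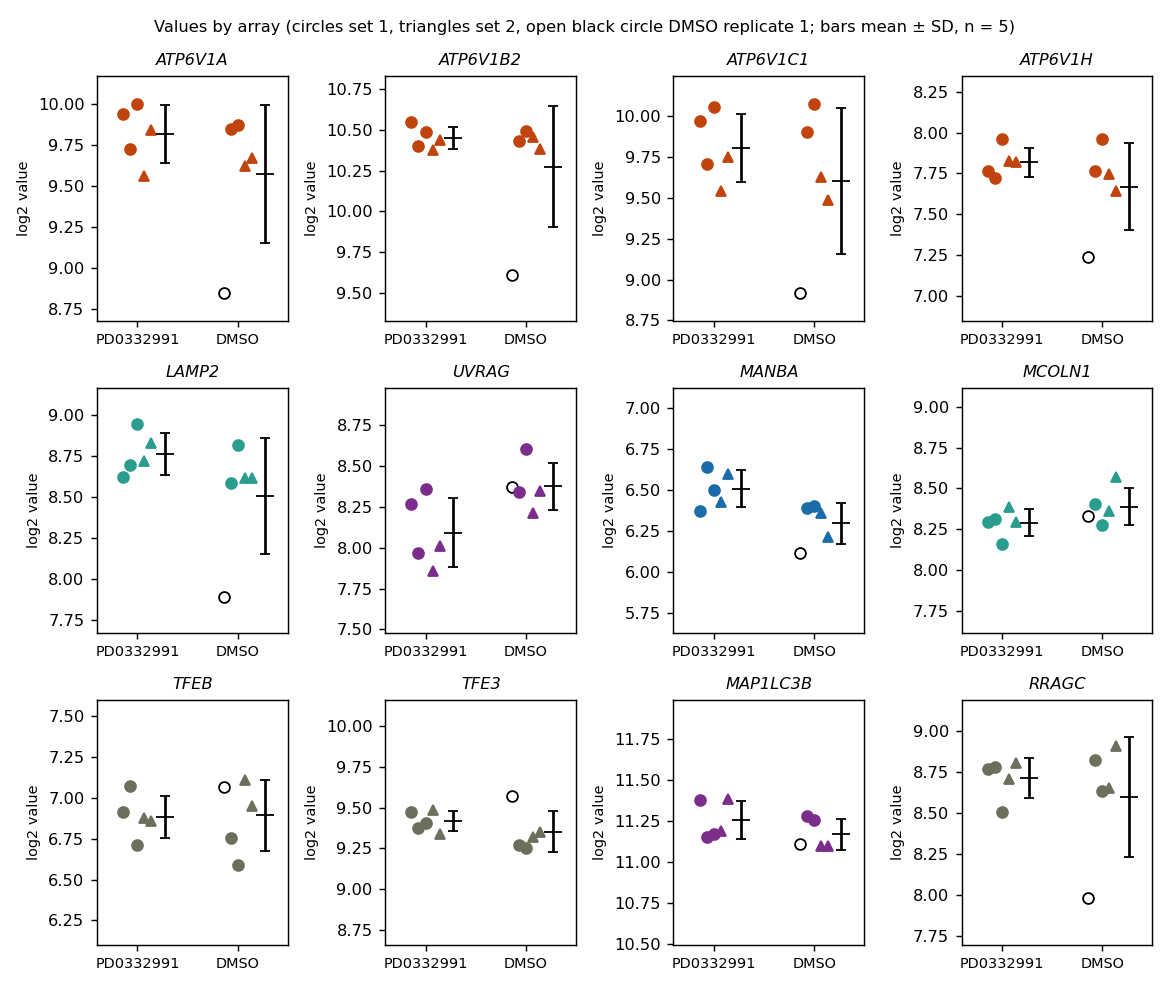
Log2 values on each array for 12 genes, PD0332991 left and DMSO right, with circles for array set 1, triangles for array set 2 and an open black circle for DMSO replicate 1. Bars at the right of each group are the mean ± SD (n = 5), and every vertical axis spans the same 1.5 log2 units. The groups overlap in every panel, and the wide bars of the ATP6V1A, ATP6V1B2, ATP6V1C1, ATP6V1H, LAMP2 and RRAGC DMSO groups come with the open circle.

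The roles were then set side by side, as a description, since the genes were chosen with results known. The medians were -0.02 for hydrolases, 0.06 for membrane and transfer proteins, 0.16 for the pump, -0.10 for the 2 autophagy genes and 0.03 for TFEB regulators. Without DMSO replicate 1 they were -0.02, 0.02, 0.00, -0.12 and 0.01, and the median of all probe sets was 0.01. In array set 1 alone, which holds that array, the pump median was 0.22, and in array set 2 alone it was 0.02.

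**Figure D5:**
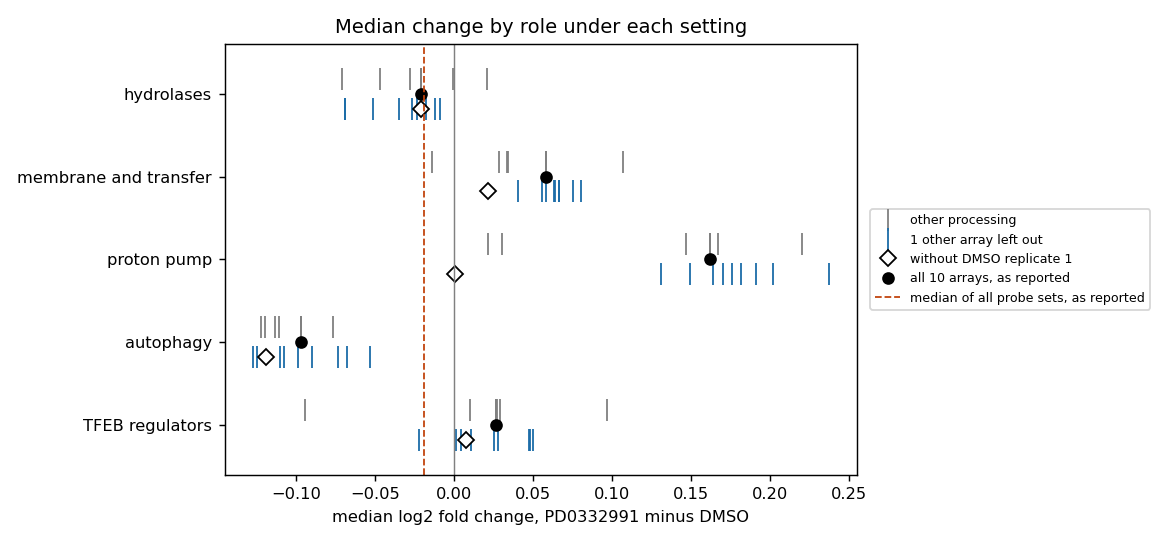
Median log2 fold change, PD0332991 minus DMSO, of the measured genes of each role on all 10 arrays (black circles), without DMSO replicate 1 (open diamonds), without each other array (blue marks) and under the other processing alternatives (grey marks). The dashed line is the median of all probe sets, -0.02. The pump stands at 0.16 and its diamond at 0.00, while the hydrolases stay near the dashed line in both.

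The fold changes were also read by promoter element. The 5 with TCACGTGA (CTSA, GAA, LAMP1, MCOLN1 and ATP6V0D1) ran from -0.10 to 0.04, with a median of 0.00, and the 13 measured members in the promoter table without it had a median of -0.01. Over all genes on the arrays, the 201 with TCACGTGA had a median of 0.02 and the 11185 without it -0.01, or 0.01 and 0.01 without DMSO replicate 1. None of the 201 passed the threshold and 9 of the 11185 did. With 0.050% of all probe sets passing, these counts are too small to compare.

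The array set was compared with the treatment. The absolute difference between sets was larger than that between treatments for 18 of 31 genes, with a median of 0.11 against 0.07. For LAMP1, PSAP, GLA, CTSF, CTSZ, NAGLU, GAA, NPC1 and ATP6AP1 set 2 was higher at an unadjusted p under 0.05 in limma. The share of all probe sets at that unadjusted threshold, or with a larger difference between sets than between treatments, was not counted. Neither result can therefore be read as a trait of these genes. None of the 31 passed after adjustment, where 3.53% of all probe sets did. The sets are named only by the array names, and what differed between them was not given in the sources used here.

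Other genes of the same pathways, in lists of 172 genes of which 138 were measured, were read off the same fit. None passed (limma, 0 higher and 0 lower, smallest adjusted p = 0.804, 5 at an unadjusted p under 0.05, which 4.17% of all probe sets reached). Of the 138, 79 were above 0 and 59 below, with a median of 0.04, where 44.8% of all probe sets were above 0. Without DMSO replicate 1, 84 were above 0 and 54 below, with a median of 0.02. The share of all probe sets above 0 was then 52.6%. The medians were 0.06 for 32 further hydrolases, 0.03 for 28 membrane and sorting proteins, -0.02 for 13 pump subunits, 0.07 for 40 autophagy genes and 0.00 for 25 nutrient-sensing genes. Without DMSO replicate 1 they were 0.03, 0.01, 0.05, 0.02 and 0.00, so that the sign of the pump subunits turned.

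SLC17A5, which encodes the exporter of sialic acid from lysosomes, had the smallest p of these lists. Its values were 6.92, 6.90, 7.02, 6.92 and 6.68 with PD0332991, against 6.17, 6.58, 6.65, 6.63 and 6.44 with DMSO, so that every treated array lay above every DMSO array. The difference was 0.39 (0.13 to 0.65, limma unadjusted p = 0.00783, adjusted p = 0.804), and 0.30 without DMSO replicate 1.

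DEPDC5, a subunit of GATOR1, which switches off mTORC1 through the Rag GTPases, was the other gene whose groups did not overlap. It was measured at 7.19, 7.15, 7.30, 7.14 and 7.01 with PD0332991, against 7.34, 7.42, 7.63, 7.34 and 7.34 with DMSO, a difference of -0.26 (-0.46 to -0.06, limma adjusted p = 1.00). These are 2 of 138, where 0.773% of all probe sets had groups without overlap.

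MCOLN2, a relative of MCOLN1, had 0.41, the autophagy protease gene ATG4C 0.40 and ULK2, a kinase gene of the autophagy start complex, -0.21 (limma adjusted p = 1.00 each). Their limma unadjusted p was 0.0257, 0.0386 and 0.0459. Without DMSO replicate 1 the differences were 0.33, 0.29 and -0.20, with a limma unadjusted p of 0.0579, 0.0852 and 0.0494. The hydrolase genes with the smallest p were GALC at 0.19 and HYAL2 at -0.20, and the pump genes ATP6V0B at -0.19 and ATP6V1E2 at 0.31. Without DMSO replicate 1 GALC was at 0.15, HYAL2 at -0.16, ATP6V0B at -0.15 and ATP6V1E2 at 0.24. The second nutrient-sensing gene was WDR24 at -0.15, or -0.08 without DMSO replicate 1.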

How the data were processed

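Expression was measured on Affymetrix exon arrays in 5 PD0332991 and 5 DMSO samples of U2OS cells. The deposited table holds log2 values by gene-level probe set, and RMA, Partek and hg18 are named in the submitters' processing notes, without versions. Summarised array values understate fold changes of dim genes. Levels were not compared between genes, except that the means of cell type markers were set against the median probe set. Array medians ran from 6.95 to 7.06. Symbols came from the platform annotation. PD0332991 and DMSO were compared by a 2-sided moderated test (limma 3.58.1, R 4.3.3) in a model with a term for array set, and p-values were adjusted by Benjamini-Hochberg over 21980 probe sets, with a threshold of 0.05. The scripts were tested on simulated data, in which 50 probe sets were given each of 4 differences. Of those given 0.25 log2, limma called 0%. It called 12% at 0.5 log2, 68% at 1 and 96% at 2. The 31 genes ran from -0.28 to 0.26, a size at which a count of 0 called is therefore little informative. The number of arrays limits the precision, and p-values measure the spread between arrays labelled biological replicates. Values by array were given for the 2 genes of each role with the smallest p, for TFEB and TFE3, and, after their values were seen, for TPP1, LAMP1, ATP6V1B2, ATP6V1C1 and RRAGD; of each wider list the 2 genes with the smallest p were named. The genes, roles and lists were chosen with earlier results of these data known. Alternatives changed the covariate, normalization, filter, weights, variance prior, probe set rule and arrays. Promoter windows are RefSeq's; their build differs from hg18, and no position was taken over to the array. Figures used Matplotlib 3.10.9 under Python 3.11.15.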

Additional observations from a re-analysis of the deposited data

Results flagged for a closer look

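In the DMSO group 1 array lay far from the other 4 for 5 of the 31 genes, and it was DMSO replicate 1 in all 5. The gap to the nearest array, as a share of the whole range of the group, was 0.886 for TPP1 (9.74 against 8.83 to 8.94), 0.749 for LAMP2 (7.89 against 8.59 to 8.82), 0.725 for GPNMB (8.28 against 8.49 to 8.57), 0.758 for ATP6V1A (8.85 against 9.63 to 9.88) and 0.872 for ATP6V1B2 (9.61 against 10.38 to 10.49). The mean of the 6 pump genes gave 0.833 (9.03 against 9.56 to 9.67). None of the 31 PD0332991 groups of single genes gave such an array. Chance flags about 1 in 20 groups, and 62 groups of single genes were examined. The share of all genes flagged in this way was not counted, so the 5 cannot be read as a trait of these genes. DMSO replicate 1 was the extreme array for 48.4% of the 31 genes and for 55.0% of all 14232 genes. The cause of the gap was not tested.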

How the results depend on the processing

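None of the 31 genes passed the threshold in any of the 21 alternatives (limma, smallest adjusted p per alternative 0.336 to 1.00, the lowest with array weights, which gave DMSO replicate 1 a weight of 0.147). As values without a call, 13 genes kept their sign in all 21; without DMSO replicate 1, 9 changed it. The count of all probe sets passing was 11, and became 2 with a replicate block, 63 with array weights, 18 over single-symbol probe sets only, and 0 both in array set 1 and in array set 2 taken alone; with 1 array left out it ran from 2 to 23, the highest without DMSO replicate 1. The median of the TFEB regulators moved to -0.0942 in array set 2 alone (main value 0.03; cause not tested). The pump median, 0.16, was 0.00 without DMSO replicate 1, 0.03 with array weights and 0.02 in array set 2 alone; these shifts were below the SD between arrays pooled over both groups only because that SD includes DMSO replicate 1, and the SD of the pump array means was 0.08 with PD0332991 and 0.05 with DMSO without that array. Same-numbered arrays correlated at 0.04 to 0.54 in their deviations from the group means, above 0.1 in 3 of 5 pairs, and 2 of 5 PD0332991 arrays correlated best with their own number, so the numbers were not taken as pairs; with the replicate block the smallest adjusted p of a member was 0.801. Each member had a single probe set of its own, so averaging probe sets changed nothing, and none lay among the probe sets left out as dim.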
